A study of Canis lupus familiaris with 15 samples.

Results

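CCL3 (ENSCAFG00000018167) and CCL13 (ENSCAFG00000024205) encode secreted CC chemokines, and they were followed through the corpora lutea (CL) of dogs as 2 of the 23630 genes counted by RNA-Seq. They were picked by name, and their values in all 15 dogs and all 4 groups are given. The study itself singled out both genes as immune response genes from calls made on these same libraries, so that their direction here is no independent evidence. It also measured them by TaqMan PCR in its available tissue, and reported both as higher in luteolysis than in luteal regression and mid-gestation. By PCR, CCL3 was also reported as higher in luteolysis than after antigestagen, and higher after antigestagen than at mid-gestation. By the study's methods, PCR and RNA-Seq drew on the same animals, apart from luteal regression dogs with too little tissue for RNA-Seq. The luteolysis dogs were thus the same, and the PCR is no evidence from other dogs of that group. Those PCR values were not re-analysed here. In short, both transcripts were abundant in 2 of the 3 dogs at prepartum luteolysis, nearly absent in the third, and low in the 12 dogs of the other groups.

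CC chemokines attract leukocytes by binding G protein-coupled receptors on their surface. CCL3, made mainly by activated macrophages and lymphocytes, acts through receptors such as CCR1, whereas CCL13 belongs to the monocyte chemoattractant proteins and acts on receptors such as CCR2 and CCR3 to draw in monocytes, eosinophils and T cells. In the regressing CL of many mammals, chemokines of this family are known for recruiting macrophages that clear luteal cells, and their genes respond to inflammatory signals through NF-kB.

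The donors were healthy bitches of mixed breed between 2 and 8 years old, and each gave 1 library. Pregnant dogs had been mated 2 days after ovulation. The mid-gestation group (n = 5) was sampled on days 35 to 40 after ovulation. The antigestagen group (n = 5) received aglepristone, a blocker of the progesterone (P4) receptor, on days 40 to 45 in 2 applications of 10 mg/kg placed 24 h apart, and its CL were removed 24 h after the second one. The luteolysis group (n = 3) received no antigestagen and was sampled before parturition, when 3 consecutive P4 measurements, taken every 6 h from day 58, were below 2 to 3 ng/ml. The luteal regression group (n = 2) consisted of non-pregnant bitches on day 65. It therefore differed from the other groups in pregnancy as well as in day, and these cannot be told apart. The pregnant groups differed in day as well, so that day cannot be told apart from antigestagen or from luteolysis. Whole CL, trimmed of ovarian tissue, were used, so that fewer cells of a type and less RNA per cell cannot be told apart either. Of 10 luteal cell genes fixed as a check of the tissue only PRLR, the prolactin receptor, could be paired with an identifier, and it measured between 65.8 and 175 CPM (TMM-scaled counts per 1000000 reads) in all 15 dogs.

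Sequencing depth varied between 8558743 and 26284315 counted reads per library (median 18313707). The dog luteolysis 1 stood apart from its group. Across genes, its Spearman correlation was 0.915 with luteolysis 2 and 0.926 with luteolysis 3, while those 2 dogs correlated at 0.977, and pairs within the other groups lay between 0.931 and 0.984. The dog mid-gestation 1 carried the group number of the antigestagen group in its description, while its title and condition both gave mid-gestation, which was followed. The study's methods count a further luteal regression dog for RNA-Seq, which was not analysed here. They also name animal permits of a pair of universities without tying dogs to either, so that a difference between sites was not tested.

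CCL3 reached 127 CPM in luteolysis 2 and 183 CPM in luteolysis 3, from 3212 and 3150 reads, but only 0.0751 CPM in luteolysis 1, from 1 read. In the antigestagen group CCL3 measured 5.00, 2.15, 4.97, 1.12 and 2.62 CPM in dogs 1 to 5, and at mid-gestation it measured 0.630, 3.34, 0.757, 6.63 and 0.575 CPM. In luteal regression it was 0.880 CPM in dog 1, while dog 2 had no CCL3 read, which allows a level of up to 0.154 CPM (3 reads in that library). Luteolysis 2 and 3 were thus the highest of all dogs, whereas luteolysis 1 was below 11 of the 12 dogs of the other groups, and the luteolysis group overlapped each of them. The level in luteolysis 2 was 19.2-fold, and in luteolysis 3 27.5-fold, that of mid-gestation 4, the next dog in order.

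Within luteolysis, CCL3 in luteolysis 2 was 1692-fold that in luteolysis 1, with an exact 95% interval from 303 to 66836 that covers counting error only. For luteolysis 3 the ratio was 2432-fold, with an interval from 436 to 96106. The spread between the 3 dogs was therefore far larger than the reads' counting error, and the group mean of 103 ± 93.6 CPM (SD, n = 3) describes none of them. The means of the other groups were 3.17 ± 1.74 CPM after antigestagen (SD, n = 5), 2.39 ± 2.64 CPM at mid-gestation (SD, n = 5) and 0.440 ± 0.622 CPM in luteal regression (SD, n = 2).

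CCL13 was the rarer transcript, with 19.5 CPM (493 reads) in luteolysis 2, 27.5 CPM (474 reads) in luteolysis 3 and, as for CCL3, a single read or 0.0751 CPM in luteolysis 1. At mid-gestation it measured 1.89, 0.360, 0, 0.626 and 0.216 CPM in dogs 1 to 5. After antigestagen it measured 0, 0.205, 0.218, 0.296 and 0.404 CPM, which rests on at most 5 reads per dog. Both luteal regression dogs were at 0 reads, allowing up to 0.147 and 0.154 CPM. Again luteolysis 2 and 3 exceeded every other dog, by 10.3-fold and 14.5-fold over the next one, and luteolysis 1 was below 8 of the 12 dogs of the other groups. That next dog was mid-gestation 1, the library with the conflicting description, and without it the highest level outside luteolysis was the 0.626 CPM of mid-gestation 4. The single read in luteolysis 1 allows up to 5.57 reads (exact Poisson 95% interval). Its place below dogs with 4 to 7 reads is therefore within counting error.

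The CCL13 level of luteolysis 2 was 260-fold (exact 95% interval 46.4 to 10276) and that of luteolysis 3 366-fold (65.4 to 14487) that of luteolysis 1. Group means were 15.7 ± 14.1 CPM in luteolysis (SD, n = 3), 0.618 ± 0.746 CPM at mid-gestation (SD, n = 5), 0.225 ± 0.148 CPM after antigestagen (SD, n = 5) and 0 in luteal regression (n = 2). The order of the groups differed between the genes only in the place of antigestagen and mid-gestation, and these neighbours did not differ beyond their spread for either gene. The same dogs were high for both chemokines. Such a profile was not rare: 1551 of the 14922 genes in the fit were higher in both luteolysis 2 and luteolysis 3 than in each of the other 13 dogs. By the fold between the lower of these 2 dogs and the highest of the 13, CCL3 ranked 20 and CCL13 ranked 33 in the whole fit, both among the 34 genes with at least 10-fold.

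**Figure D1:**
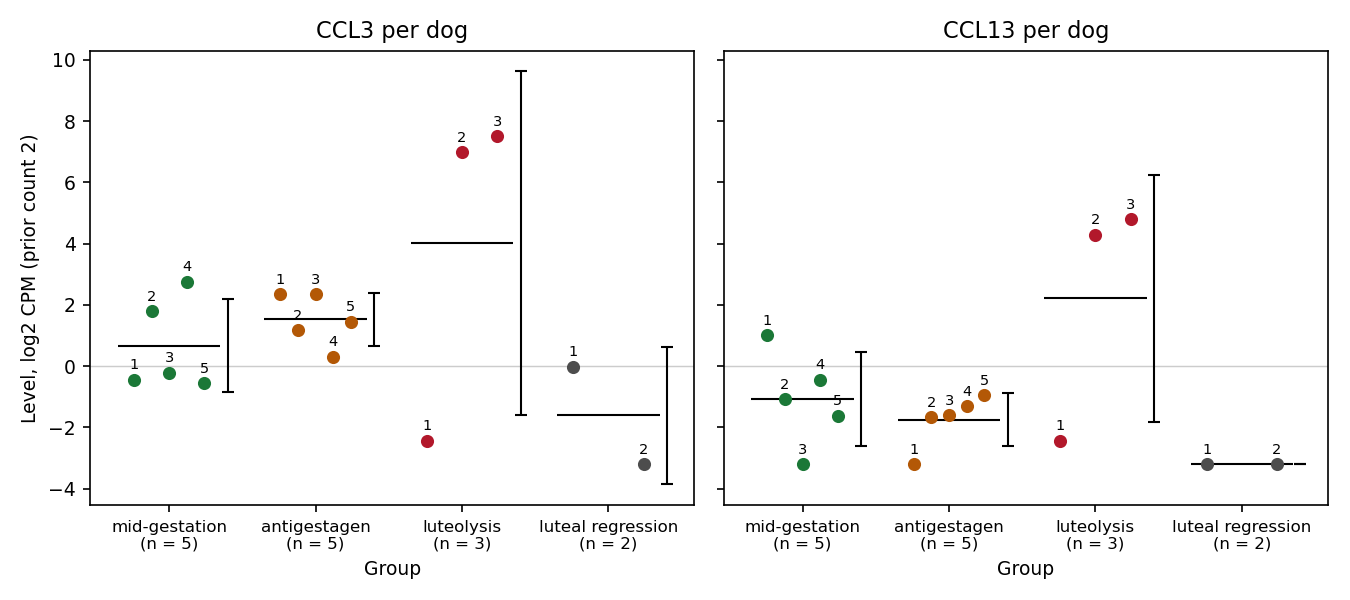
Level of CCL3 (left) and CCL13 (right) in log2 CPM with a prior count of 2, 1 point per dog, numbered within its group; horizontal lines are group means and the bars beside them are 1 SD. Luteolysis dogs 2 and 3 lie above all other dogs in both panels (6.99 and 7.51 for CCL3, 4.29 and 4.79 for CCL13), while luteolysis dog 1 lies at -2.44 in both.

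The first comparison, luteal regression over luteolysis, addresses how CL of non-pregnant dogs differ from CL in prepartum luteolysis. CCL3 and CCL13 both belonged to the differentially expressed genes (DEG, p-value below 0.01 and adjusted p-value below 0.1 in edgeR), with higher means in luteolysis, where 3.58% of all genes tested were DEG in that direction (5.11% in either). For CCL3 the log2 ratio was -7.83 ± 2.09 (SE; adjusted p = 0.0720, edgeR quasi-likelihood test with Benjamini-Hochberg adjustment). For CCL13 the fitted log2 ratio was -11.17 ± 2.67 (adjusted p = 0.0562), but with no read in luteal regression it is no measure of size. Set against 3 reads in each regression library, the mean level in luteolysis was at least 104-fold higher (65.1-fold without luteolysis 3). Both calls were lost when luteolysis 3 was left out (-7.09, adjusted p = 0.240, for CCL3 and -10.49, adjusted p = 0.197, for CCL13), in a fit that called 5 genes in all. They were also lost without luteal regression 1 (-13.88, adjusted p = 0.372, and -11.16, adjusted p = 0.392) and without luteal regression 2 (-6.87, adjusted p = 0.396, and -11.17, adjusted p = 0.370), where 0 and 1 of all genes were called. Luteal regression 1 was the only regression dog with CCL3 reads. Fitted on the dogs of these 2 groups alone, neither gene was called (adjusted p = 0.270 and 0.255), nor was any other.

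The second comparison, mid-gestation over luteolysis, sets CL of pregnancy before the P4 decline beside CL during it. CCL3 gave a log2 ratio of -5.44 ± 1.21 (adjusted p = 0.0241) and CCL13 one of -4.66 ± 1.09 (adjusted p = 0.0323), so that both were DEG with higher means in luteolysis, beside 5.73% of all genes tested (8.16% in either direction). Without luteolysis 3 neither was called (-4.72, adjusted p = 0.159, and -3.96, adjusted p = 0.214). That fit called 112 genes in all, with 0.626% of all genes DEG higher in luteolysis. Without mid-gestation 1 both calls held, in a fit that called 867 genes, and CCL13 moved to -5.66 (adjusted p = 0.0329). Fitted on the dogs of both groups alone, where 422 genes were called, CCL3 was still called (adjusted p = 0.0983) and CCL13 was not (adjusted p = 0.110).

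Luteolysis over antigestagen contrasts spontaneous with induced luteolysis, at different days of pregnancy. Both chemokines were again DEG with higher means in luteolysis, CCL3 with a log2 ratio of 5.03 ± 1.19 (adjusted p = 0.0462) and CCL13 with 6.06 ± 1.22 (adjusted p = 0.0284), while 3.12% of all genes tested were DEG higher in luteolysis (4.75% in either direction). Neither was called without luteolysis 3 (4.32, adjusted p = 0.289, and 5.38, adjusted p = 0.188), and CCL3 was not called without luteolysis 2 (4.86, adjusted p = 0.108). Those fits called 6 and 229 genes in all, with 0.0207 and 1.01% of all genes DEG higher in luteolysis. Neither was called when only the dogs of both groups were fitted (adjusted p = 0.150 and 0.132), where 3 of all genes were called. The 3 comparisons share the same luteolysis dogs and are not independent of each other.

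Leaving out luteolysis 1 instead moved all 6 log2 ratios away from 0. CCL3 then gave -8.39, -6.02 and 5.62, and CCL13 gave -11.78, -5.24 and 6.65, in the order of the comparisons above, and all were DEG. Calls also rose over all genes, with 7.03, 9.26 and 7.61% DEG higher in luteolysis in these fits. An exact permutation test on log2 CPM was added after the data had been seen. For CCL3 its two-sided exact p was 0.300 (luteal regression over luteolysis), 0.232 (mid-gestation over luteolysis) and 0.304 (luteolysis over antigestagen). For CCL13 the corresponding exact p-values were 0.200, 0.161 and 0.0893. The smallest p-value that 2 dogs against 3 can give is 0.100, and 3 against 5 can reach 0.0179, so that at these group sizes the test could not pass the p-value of 0.01 required of a DEG in any of the 3 comparisons.

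**Figure D2:**
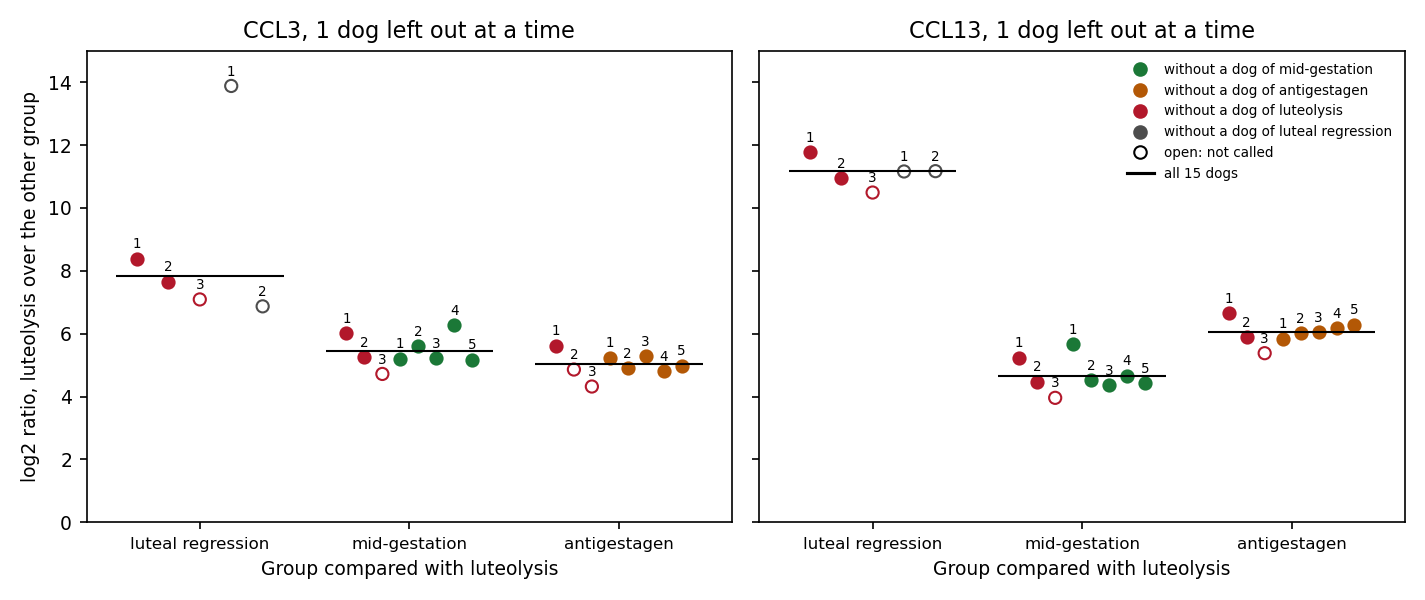
Log2 ratio of luteolysis over each other group for CCL3 (left) and CCL13 (right) with all 15 dogs (line) and with 1 dog left out (points, coloured by that dog's group and numbered within it). Filled points are DEG and open points are not; the points without luteolysis dog 3 are open in all 6 sets, and those without luteolysis dog 1 are filled and above the line in each.

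Between the groups other than luteolysis, no gene at all was DEG in the edgeR fit over all dogs (0% of the genes tested in each of these 3 comparisons). In the order of the comparisons that follow, 980, 2073 and 2496 genes had an unadjusted p-value below 0.05 there. In the same order, edgeR on only the dogs of both groups called 0, 770 and 1 genes. DESeq2 without shrinkage called 87, 332 and 920, and limma-voom 18, 2741 and 2408. Mid-gestation and antigestagen differ in P4 receptor blockade and also in day. For mid-gestation over antigestagen, the log2 ratio was -0.41 ± 1.05 for CCL3 (adjusted p = 0.968) and 1.40 ± 1.16 for CCL13 (adjusted p = 0.853). The CCL13 value leaned on mid-gestation 1, since without that dog the gene fell below the count minimum of the test. For luteal regression over mid-gestation, CCL3 gave -2.40 ± 1.74 (adjusted p = 0.518) and CCL13 had a mean level at mid-gestation at least 4.11-fold that allowed by 3 reads in each regression library (adjusted p = 0.342), a bound that was 2.00-fold without mid-gestation 1. For luteal regression over antigestagen, CCL3 gave -2.80 ± 1.75 (adjusted p = 0.404), and CCL13 had too few reads to be tested. There, CCL3 did not overlap, as both regression dogs (0.880 and 0 CPM) were below the lowest antigestagen dog (1.12 CPM). The gap rests on 18 reads in luteal regression 1 and 19 in antigestagen 4. Their Poisson 95% intervals overlap (10.7 to 28.4 and 11.4 to 29.7 reads). How many of all genes separate these groups in the same way was not counted. The exact permutation test gave p = 0.0476, the smallest that 2 against 5 dogs allow, and 0.286 after Benjamini-Hochberg adjustment over the 6 pairs of groups.

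Because both chemokines were read in the same libraries, their ratio does not depend on library scaling. Of the reads on either gene, CCL13 took 13.3% in luteolysis 2 (exact Clopper-Pearson 95% interval 12.2 to 14.4%) and 13.1% in luteolysis 3 (12 to 14.2%). These shares agree within sampling noise. In mid-gestation 1 CCL13 took 75.0% (60.4 to 86.4%), 36 of 48 reads, and this was the only dog with more CCL13 than CCL3 reads. In the remaining dogs with over 2 reads the share lay between 0 and 27.3%. The log2 ratio of CCL13 to CCL3 reads, with 2 added to each count, averaged -1.81 ± 1.57 in luteolysis (SD, n = 3), -1.73 ± 1.94 at mid-gestation (SD, n = 5), -3.06 ± 1.24 after antigestagen (SD, n = 5) and -1.66 ± 2.35 in luteal regression (SD, n = 2). Two-sided exact permutation p-values for the 6 pairs of groups lay between 0.246 and 1.00 (adjusted p between 0.762 and 1.00), where the smallest that the group sizes allow is 0.00794 for 5 against 5 dogs, 0.0179 for 3 against 5, 0.0476 for 2 against 5 and 0.100 for 2 against 3. Dogs with hardly any read on either gene, such as luteolysis 1 and luteal regression 2, sit at a ratio of 0 by construction. The ratio is one of reads, not of transcripts, since gene lengths were not used.

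**Figure D3:**
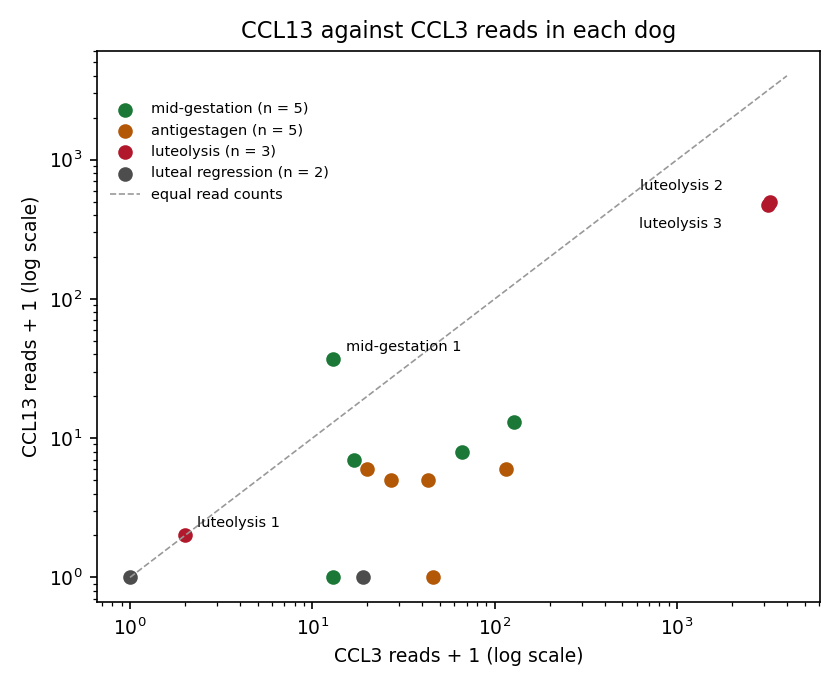
CCL13 reads against CCL3 reads in each of the 15 dogs, both plus 1 on log axes, coloured by group; the dashed line marks equal read counts. Luteolysis dogs 2 and 3 nearly coincide at the upper right (3212 and 493, 3150 and 474 reads), luteolysis dog 1 is at 1 read of each, and mid-gestation dog 1 is the only dog clearly above the line.

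CCL3 and CCL13 were set among the other chemokine genes. Names came from the gene lists the study published, which hold only genes it called in some contrast on these dogs, so that list counts are no independent evidence. Of 22 CC chemokine ligands 10 had a name. In luteal regression over luteolysis, 6 of the 10 were DEG, all higher in luteolysis (CCL2, CCL3, CCL5, CCL13, CCL14 and CCL21), with a median log2 ratio of -3.75 against -0.05 over all genes, of which 3.58% were DEG in that direction. In mid-gestation over luteolysis, 6 were DEG higher in luteolysis (CCL2, CCL3, CCL5, CCL7, CCL13 and CCL20), beside 5.73% of all genes, and CCL25, a thymic and gut chemokine, was DEG higher at mid-gestation, as were 2.43% of all genes. The median was -2.16 against -0.02. In luteolysis over antigestagen, CCL3 and CCL13 were the only 2 DEG of the 10 (median 1.49 against 0.02), beside 3.12% of all genes higher in luteolysis. Without luteolysis 1 that comparison gave 6 DEG higher and 1 lower in luteolysis, in a fit with 7.61% of all genes DEG higher in luteolysis. Without luteolysis 3 none of the 10 was DEG in any of the 3 comparisons. In those fits only 0.0271, 0.626 and 0.0207% of all genes were DEG higher in luteolysis, in the order above. Without luteolysis 2 the numbers of DEG were 6, 3 and 1, all higher in luteolysis, beside 4.24, 2.21 and 1.01% of all genes. These list counts without single dogs were added after seeing the data.

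CCL4, the neighbour of CCL3 in the dog genome and a related inflammatory chemokine, was also highest in luteolysis 2 and 3 (20.6 and 21.2 CPM, against 1.20 in luteolysis 1). Mid-gestation 4, the highest dog outside luteolysis for CCL3, was also that for CCL4, at 15.5 CPM. CCL4 was not DEG in any comparison (log2 ratio of mid-gestation over luteolysis -1.48 ± 0.80, adjusted p = 0.316). CCL2, a monocyte attractant that like CCL7 lies in the cluster around CCL13, measured 593 and 818 CPM in luteolysis 2 and 3, against 35.1 in luteolysis 1 and 7.85 to 248 in the other groups. CCL20, which attracts CCR6-bearing cells, measured 5.46 and 4.06 CPM in the same 2 dogs, had no read in luteolysis 1 or at mid-gestation, and was at most 0.784 CPM elsewhere. CCL14 and CCL21, by contrast, were no lower in luteolysis 1 (23.6 and 19.2 CPM) than in luteolysis 2 (15.5 and 10.7 CPM), and luteolysis 3 was the highest of the 3 dogs for both (32.3 and 22.6 CPM).

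Of 11 CC receptors 4 had a name. CCR2, a receptor of CCL13, was 0.0751, 1.30 and 0.985 CPM, and it was DEG in mid-gestation over luteolysis only (-2.26 ± 0.74, adjusted p = 0.0973). CCR7, which guides dendritic cells and T cells to lymph nodes by CCL19 and CCL21, was, among these receptors, the one with the widest gap between dogs, with 0.676, 207 and 198 CPM and at most 12.7 CPM in any other dog. It was DEG in all 3 luteolysis comparisons, for example with -7.17 ± 1.26 in mid-gestation over luteolysis (adjusted p = 0.00947), a call that also held without luteolysis 3 (-6.77, adjusted p = 0.0595). Its other calls did not hold without luteolysis 3, in luteal regression over luteolysis (-5.60, adjusted p = 0.279) and luteolysis over antigestagen (4.52, adjusted p = 0.236), nor without luteolysis 2 (-5.58, adjusted p = 0.110, and 4.47, adjusted p = 0.113). The atypical receptors bind chemokines without classical signalling. Of these, ACKR2, which takes up and degrades inflammatory CC chemokines, measured 2.78, 12 and 10.7 CPM in luteolysis and was DEG in mid-gestation over luteolysis (-2.49 ± 0.61, adjusted p = 0.0364).

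Outside the CC family, 6 of 18 chemokines and receptors had a name. CXCL8, a neutrophil attractant, measured 311 and 282 CPM in luteolysis 2 and 3 and, unlike CCL3 and CCL13, was well above its floor in luteolysis 1 (86.0 CPM). Mid-gestation 4 again stood out at 177 CPM. CXCL8 was DEG only in luteolysis over antigestagen (3.52 ± 1.05, adjusted p = 0.0971). The calls given for CCR2, ACKR2 and CXCL8 were lost without luteolysis 3, and those of ACKR2 and CXCL8 also without luteolysis 2. Without luteolysis 2, CCR2 fell below the count minimum and was not tested. Of the 6 genes 1 was DEG higher in luteolysis against luteal regression (CXCL10) and 2 against mid-gestation (CXCL10 and CXCL16), with none in the other direction. Among all genes, 3.58 and 5.73% were DEG higher in luteolysis. Without luteolysis 3 none of the 6 was DEG in these comparisons, in fits that called 0.0271 and 0.626% of all genes higher in luteolysis. Without luteolysis 2 none was DEG higher in luteolysis, beside 4.24 and 2.21% of all genes. CXCL12 was then DEG higher in luteal regression (1.80, adjusted p = 0.0973).

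**Figure D4:**
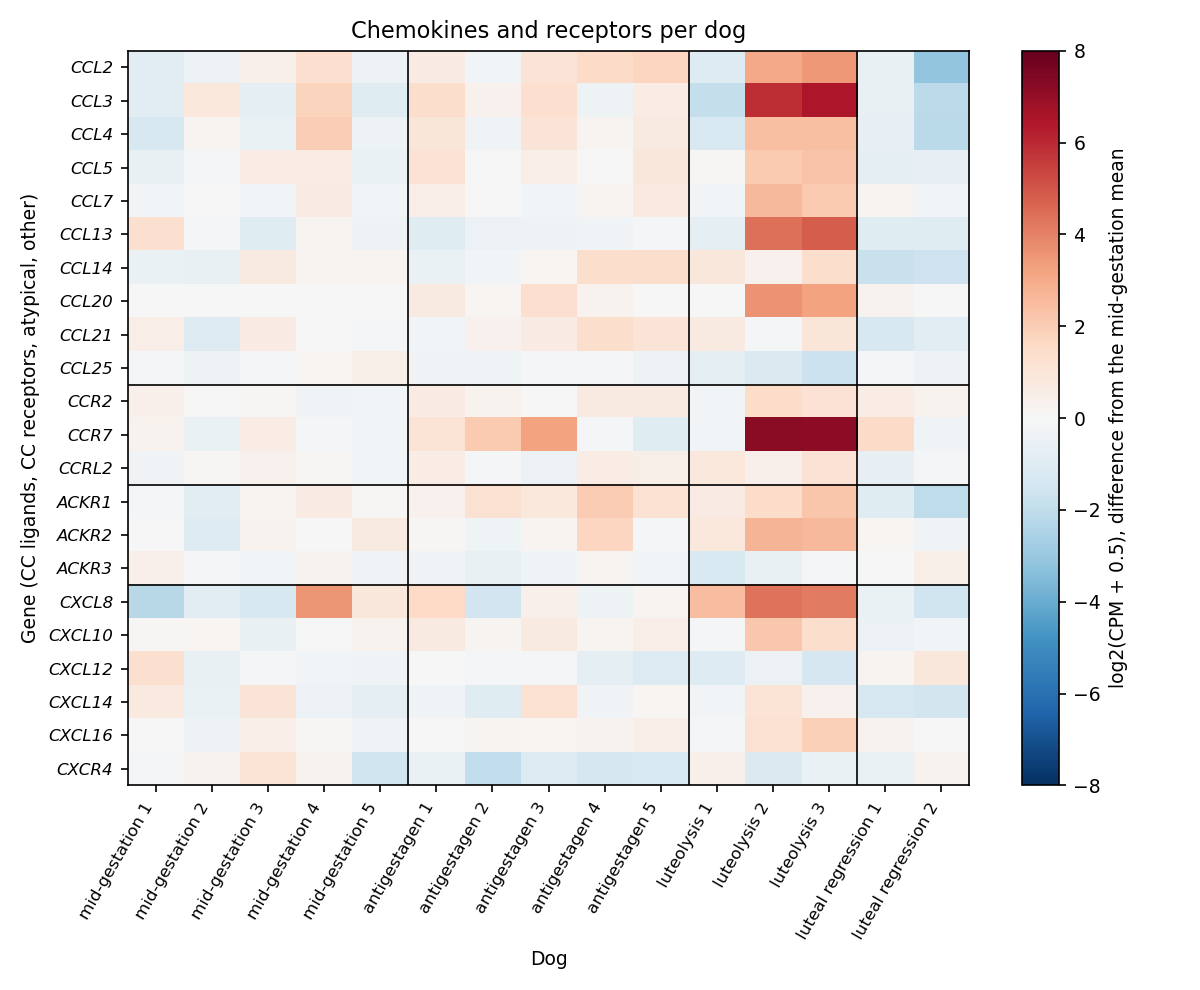
Chemokines and receptors named in the text, with CCRL2, ACKR1, ACKR3, CXCL12, CXCL14 and CXCR4, in each dog as log2(CPM + 0.5), shown as the difference from the gene's mean at mid-gestation; lines separate the gene lists and the groups. CCL3 and CCR7 are darkest in luteolysis dogs 2 and 3, CCL13 is dark in the same dogs, and luteolysis dog 1 is pale or blue for each of these genes.

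Genes of the NF-kB pathway and its inducers, which control chemokine transcription, were 12 of 23 by name. These names also came from the study's lists of genes called on these dogs. Their counts and medians are therefore no independent evidence, and all genes are an unlike background for them. In mid-gestation over luteolysis 8 of them were DEG, all higher in luteolysis (IL1B, NFKB2, REL, RELA, NFKBIA, NFKBIB, TNFAIP3 and BIRC3), with a median log2 ratio of -1.29 against -0.02 over all genes, of which 5.73% were DEG in that direction. In luteal regression over luteolysis 2 were DEG (RELB and NFKBIB), and in luteolysis over antigestagen none was, beside 3.58 and 3.12% of all genes. Without luteolysis 1 these counts were 10 and 8 of the 12, all higher in luteolysis, in fits that called 7.03 and 7.61% of all genes tested in that direction. Without luteolysis 2 the 3 comparisons gave 2, 0 and 0 DEG in the order of the chemokine comparisons. Among all genes, 4.24, 2.21 and 1.01% were then DEG higher in luteolysis. Without luteolysis 3 the comparisons gave none, beside 0.0271, 0.626 and 0.0207% of all genes. RELA, the main activating subunit, measured 180 and 198 CPM in luteolysis 2 and 3, 40.8 in luteolysis 1 and 40.1 to 114 CPM in the other groups. IL1B, an inducer of CCL3, had no read in luteolysis 1 and measured 7.27 and 18.8 CPM in luteolysis 2 and 3.

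The genes most like each chemokine over the 15 dogs were ranked by the Pearson correlation of log2 CPM, as a description, since the dogs share groups and the same 2 high libraries weigh in every value. For CCL3, the first 10 of 14921 genes were NABP1 (r = 0.952), IL1B (0.942), CTGF (0.940), CCL4 (0.928), RND1, IL1RN, DUSP6, BCL2A1, DUSP5 and PLK3 (0.890). They include the cytokine IL1B with its receptor antagonist IL1RN, and the phosphatases DUSP5 and DUSP6, which switch off ERK. For CCL13, the first 10 included LYZ (0.943), CKB (0.935), SLC2A1 (0.934), ILK (0.932), FSTL3, CHMP4B, ENSCAFG00000016333, TKT and SPTLC2 (0.908). Among them are lysozyme, a product of phagocytes, the glucose transporter SLC2A1 and the pentose phosphate enzyme TKT. The 2 sets shared no gene, and the chemokines correlated with each other at r = 0.806 (Spearman's rho 0.569). Of each set, 8 of 10 stayed among the first 10 without luteolysis 1, but only 5 (CCL3) and 2 (CCL13) by rank correlation.

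Markers of leukocytes, named from the same lists of called genes, moved unevenly with the chemokines. For monocytes and macrophages, 7 of 15 markers had a name, and their summed level was 496, 688 and 795 CPM in luteolysis 1, 2 and 3, within the range of the antigestagen group (396 to 1108) and the mid-gestation group (396 to 869) and above luteal regression (200 to 240). Within this list LYZ followed CCL13 (54.6, 288 and 414 CPM), whereas C1QB, a complement subunit of tissue macrophages, was higher in luteolysis 1 (152 CPM) than in luteolysis 2 and 3 (65.0 and 101 CPM). For neutrophils (3 of 10 markers) the sums were 8.03, 92.2 and 46.0 CPM in luteolysis, 20.6 to 44.5 after antigestagen, 8.50 to 42.2 in the mid-gestation dogs, and 2.16 to 7.63 in the regression dogs. For T and NK cells (4 of 10) they were 6.38, 209 and 112 CPM, against 6.93 to 25.0 CPM in the other groups. The high sums of T and NK markers came from GZMB, a cytotoxic granule enzyme (0.676, 206 and 110 CPM), and the other markers went the other way. CD3E, a T cell receptor subunit, was 0.676, 0.791 and 0.290 CPM, CD2 was 4.20, 1.94 and 2.26 CPM, and GZMA was 0.826, 0.514 and 0.174 CPM. Each had a lower mean in luteolysis than in every other group. CD2 was DEG lower in luteolysis against mid-gestation and antigestagen, GZMA against mid-gestation only, and CD3E in no comparison. GZMB was DEG higher in luteolysis against each other group, as was LYZ of the macrophage list. Among all genes, 5.11, 8.16 and 4.75% were DEG in either direction against luteal regression, mid-gestation and antigestagen. Against mid-gestation, 2.43% were DEG lower in luteolysis.

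Dendritic cell markers (4 of 7) summed to 126, 91.1 and 116 CPM in luteolysis and 78.3 to 163 CPM elsewhere. Endothelial markers (3 of 6) summed to 365, 798 and 718 CPM, against 215 to 775 CPM, and stromal markers (4 of 8) to 1855, 3336 and 1470 CPM, against 2617 to 11250 CPM. None of the 5 B cell markers had a name, and no measured marker was at 0 in all luteolysis dogs. The part of cell composition in the levels of CCL3 and CCL13 was not tested.

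**Figure D5:**
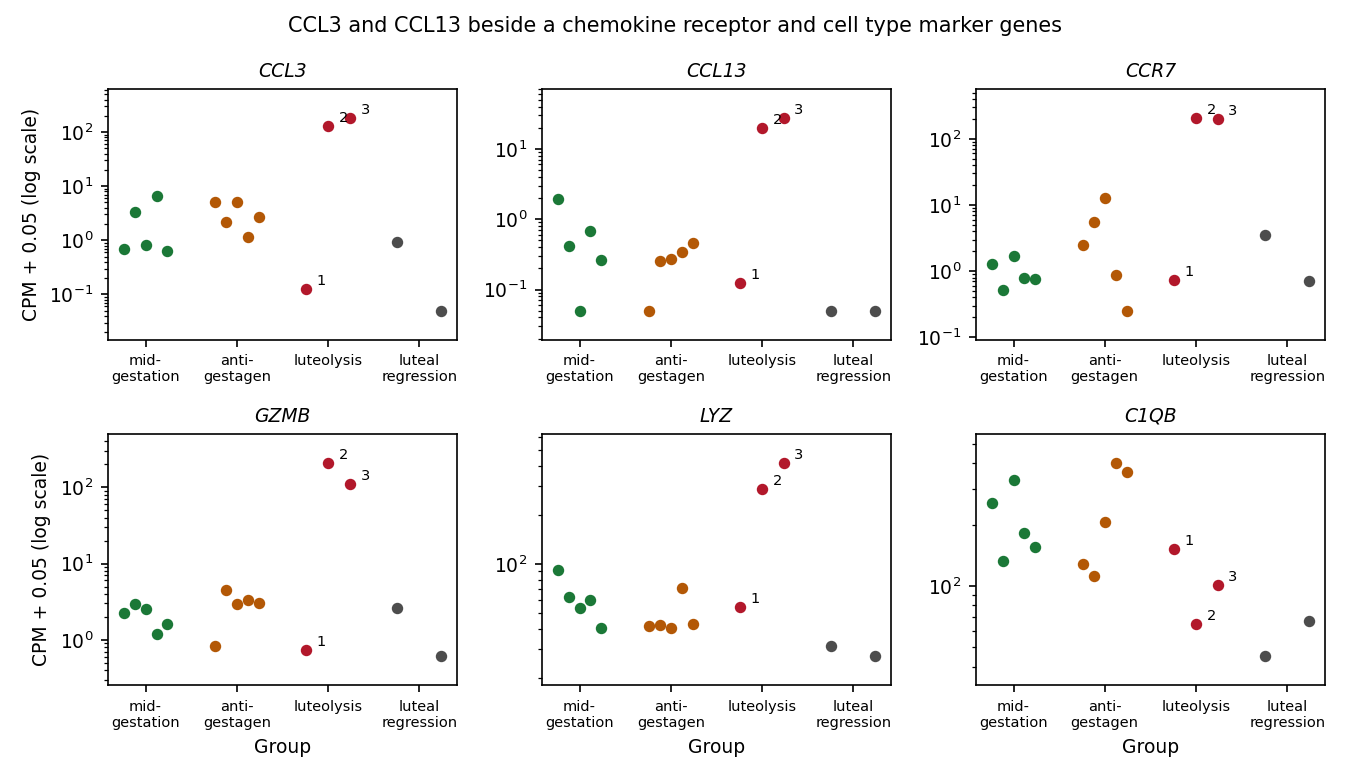
CPM plus 0.05, on log axes that differ between panels, of CCL3, CCL13, the receptor CCR7 and the marker genes GZMB, LYZ and C1QB in each dog by group, with luteolysis dogs numbered. Luteolysis dogs 2 and 3 are above all other dogs for the first 5 genes, whereas C1QB is lower in them (65.0 and 101 CPM) than in luteolysis dog 1 (152 CPM).

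Reads of related chemokine genes could be exchanged in counting. In the RefSeq annotation of the dog (assembly UU_Cfam_GSD_1.0, used for gene order only), CCL3 has CCL4 as its neighbour on one side and 2 genes without a family name, followed by CCL23 and CCL14, on the other, while CCL13 lies between CCL1 and the run of CCL8, CCL7 and CCL2, with 28 protein-coding genes between both members. How reads matching several genes were counted is not given in the sources used here, and the kit did not mark strand. The levels of CCL3 and CCL13 are uncertain to that extent.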

How the data were processed

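Poly-A selected RNA from the CL of each of 15 dogs (RIN 7.2 to 9.5) was sequenced from a single end. Per the labels and the study's methods, the authors aligned the reads to CanFam3.1 with STAR 2.5.1b, assigned them to Ensembl genes with featureCounts and deposited raw counts without normalization. The strand setting and the handling of reads that match several genes are not given in the sources used here. All 3148 counts of at least 10000 were found rounded to 4 significant digits. Groups were read from the sample labels; dogs are numbered in accession order, and no label pairs them.

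One fit over all dogs held the 14922 genes whose mean count reached 10 in some group (edgeR 4.0.16, R 4.3.3, TMM, quasi-likelihood F-test, two-sided). Each comparison was tested on the genes reaching that minimum in 1 of the 2 groups compared, and its p-values were adjusted by Benjamini-Hochberg. The SE of a log2 ratio was its size divided by the square root of F. CPM were TMM-scaled, and log2 CPM used a prior count of 2. Only the edgeR steps were tested on simulated counts, with known changes set in the luteolysis group. Depth limits a level to 3 reads per library, between 0.108 and 0.333 CPM; intervals and floors cover counting error only. No pair of libraries in a group agreed within sampling noise (chi-square per degree of freedom at least 32.1).

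CCL3, CCL13, the gene lists and the rule for named genes (all paired chemokines among those 14922 genes, genes needed to summarise the inducer and marker lists, and the 10 genes most correlated with each member) were chosen with earlier results of these data known. Symbols came from the study's gene lists (2970 paired); their fold change and p-value columns were not used. Results for 2 of the named genes are not reported here. Alternatives were DESeq2 1.42.0, limma 3.58.1 (voom), other scalings and filters, and each dog left out. Exact permutation tests used SciPy 1.17.1.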

Additional observations from a re-analysis of the deposited data

How the results depend on the processing

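The 6 calls of CCL3 and CCL13 in the luteolysis comparisons kept their direction under every alternative run. They also stayed DEG under both other scalings, robust edgeR, DESeq2 with and without shrinkage, no filter and a mean count of at least 50. With only the dogs of both groups, 5 of the 6 calls were lost: luteal regression over luteolysis (CCL3 -7.82, CCL13 -11.23), CCL13 in mid-gestation over luteolysis (-4.65), and luteolysis over antigestagen (CCL3 5.03, CCL13 6.05). An adjusted p-value below 0.05 removed both in luteal regression over luteolysis (-7.83 and -11.17), and limma-voom with quality weights removed CCL3 there (-9.09). The exact permutation test of log2 CPM, added after seeing the data, cannot reach a p-value of 0.01 at these group sizes and so could call none of the 6 (differences CCL3 -5.63, -3.35 and 2.49; CCL13 -5.41, -3.28 and 3.96, in the order of the luteal regression, mid-gestation and antigestagen comparisons). With 1 dog left out the log2 ratios ranged in this order from -13.88 to -6.87, from -6.27 to -4.72 and from 4.32 to 5.62 for CCL3, and from -11.78 to -10.49, from -5.66 to -3.96 and from 5.38 to 6.65 for CCL13; with 1 regression dog left, that dog is assumed to vary like the other groups. DESeq2 with shrinkage kept the 6 calls but brought their log2 ratios to -1.56, -1.80 and 1.74 for CCL3 and -1.51, -1.60 and 1.79 for CCL13 in this order, and it reversed uncalled ratios of luteal regression over mid-gestation (CCL3 0.24, CCL13 0.09) and over antigestagen (CCL3 0.17). The log2 difference in the CCL13 to CCL3 ratio, called nowhere, changed sign with a prior count of 0.5 in luteal regression over luteolysis (-0.79), mid-gestation over luteolysis (-0.37) and luteal regression over mid-gestation (-0.42). With 1 dog left out it ranged from -1.51 to 1.81, from -0.71 to 0.99 and from -1.59 to 1.73 in these, and from -0.26 to 3.06 in luteal regression over antigestagen. The cause of these changes was not tested.

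The number of DEG, 754, 1197 and 687 in the 3 luteolysis comparisons, was 3646, 3220 and 2833 with limma-voom, 1606, 1744 and 1471 with DESeq2 and shrinkage, 0, 422 and 3 with only the dogs of both groups, 197, 583 and 268 with an adjusted p-value below 0.05, 1593, 2434 and 2169 without luteolysis 1, and 5, 112 and 6 without luteolysis 3. Between the other groups, where edgeR called 0, the counts for mid-gestation over antigestagen, luteal regression over mid-gestation and luteal regression over antigestagen were 18, 2741 and 2408 with limma-voom, 86, 287 and 851 with DESeq2 and shrinkage, 87, 332 and 920 without it, and 0, 770 and 1 with only the dogs of both groups. In the last of these comparisons they were 3 with DESeq2 size factors, 2 with upper-quartile scaling and 1 with the mean count minimum raised to 50. With 1 dog left out they were at most 8, 1 and 91, the last without antigestagen 1. No paired analysis was possible because the labels give no replicate numbers and each dog belongs to 1 group. Levels under about 1 CPM, as for CCL13 in nearly all dogs outside luteolysis, rest on few reads.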
